A study of Mus musculus with 95 samples.

Results

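The serum amyloid A genes Saa1, Saa2 and Saa3, the fibrinogen chain genes Fga, Fgb and Fgg, and the signalling brake Socs3 were followed in the kidneys of lupus-prone SNF1 mice after pristane. These 7 genes, of 17097 genes represented on the array, were taken from the acute phase response, and every probe set whose only symbol in the array annotation was one of them was used. This gave 8 probe sets of 45037, with 1 each for Saa1 (1450788_PM_at), Saa3 (1450826_PM_a_at), Fga (1424279_PM_at), Fgb (1428079_PM_at), Fgg (1416025_PM_at) and Socs3 (1416576_PM_at), and 2 for Saa2 (1419075_PM_s_at and 1449326_PM_x_at). SNF1 mice are bred by crossing SWR with NZB, and females received pristane, a hydrocarbon oil that speeds up lupus nephritis, by intraperitoneal injection at 9 weeks of age. Total kidney RNA was hybridised with 1 kidney on each of 95 Affymetrix HT MG-430 PM arrays, and the values are log2 after RMA. There were 7 untreated mice, which got no injection, at week 0, and 10, 9, 10, 10 and 5 of them at weeks 2, 4, 8, 12 and 14. Pristane-SNF1 mice numbered 9, 10, 8, 8 and 9 at the latter weeks. Both arms carried the same lupus-prone background, so the untreated mice are age-matched controls of the strain and not healthy mice of another strain.

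The acute phase response is the change in secreted proteins that follows infection or tissue damage. Cytokines of the Il6 family signal through the shared receptor chain gp130 and the transcription factor STAT3, and interleukin 1 and tumour necrosis factor act through NF-kB and C/EBP factors. The liver makes most serum amyloid A1 and A2 and most fibrinogen of the blood, whereas mouse Saa3 is known for its expression outside the liver, among others in macrophages. Socs3 is a direct STAT3 target that shuts off signalling from gp130.

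The promoters of the members are given here because Saa1 and Saa2 are so alike that their transcripts are hard to tell apart, while Saa3 is not. The 250 bases before the start of each gene, 5′ to 3′ on its own strand, come from RefSeq (GRCm38.p6), in which all 7 members matched. In the window from 250 bases before to 50 bases after the start, both strands were searched for the STAT motif TTCNNNGAA, the C/EBP motif TTNNGNAA and an NF-kB motif. Capitals mark the STAT and C/EBP matches that lie wholly before the start.
Saa1, chr7:46742981-46743230, minus strand: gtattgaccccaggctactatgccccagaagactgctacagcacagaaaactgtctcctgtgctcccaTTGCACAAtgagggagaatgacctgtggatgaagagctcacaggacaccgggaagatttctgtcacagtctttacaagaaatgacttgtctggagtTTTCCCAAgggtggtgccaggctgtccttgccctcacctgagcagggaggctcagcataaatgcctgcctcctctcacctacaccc
Saa2, chr7:46751583-46751832, plus strand: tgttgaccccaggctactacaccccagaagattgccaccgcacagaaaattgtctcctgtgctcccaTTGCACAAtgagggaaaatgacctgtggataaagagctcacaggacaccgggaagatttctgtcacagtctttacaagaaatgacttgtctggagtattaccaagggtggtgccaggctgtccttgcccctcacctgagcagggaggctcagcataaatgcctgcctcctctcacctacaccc
Saa3, chr7:46715677-46715926, minus strand: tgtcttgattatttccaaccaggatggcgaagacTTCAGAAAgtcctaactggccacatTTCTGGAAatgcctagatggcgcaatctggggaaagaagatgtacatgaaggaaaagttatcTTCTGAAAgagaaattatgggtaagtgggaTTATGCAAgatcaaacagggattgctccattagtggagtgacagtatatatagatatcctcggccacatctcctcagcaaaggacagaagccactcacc
Fga, chr3:83025903-83026152, plus strand: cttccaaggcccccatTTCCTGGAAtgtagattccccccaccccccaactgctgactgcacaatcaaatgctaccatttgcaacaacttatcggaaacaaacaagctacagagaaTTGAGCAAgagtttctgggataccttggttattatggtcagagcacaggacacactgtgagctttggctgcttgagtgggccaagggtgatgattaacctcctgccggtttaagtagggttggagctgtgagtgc
Fgb, chr3:83049864-83050113, minus strand: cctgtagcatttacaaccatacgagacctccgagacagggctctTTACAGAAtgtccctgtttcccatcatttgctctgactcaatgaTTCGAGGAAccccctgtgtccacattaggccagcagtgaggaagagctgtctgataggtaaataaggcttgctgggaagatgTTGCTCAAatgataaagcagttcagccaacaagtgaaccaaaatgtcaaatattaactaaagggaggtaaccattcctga
Socs3, chr11:117969367-117969616, minus strand: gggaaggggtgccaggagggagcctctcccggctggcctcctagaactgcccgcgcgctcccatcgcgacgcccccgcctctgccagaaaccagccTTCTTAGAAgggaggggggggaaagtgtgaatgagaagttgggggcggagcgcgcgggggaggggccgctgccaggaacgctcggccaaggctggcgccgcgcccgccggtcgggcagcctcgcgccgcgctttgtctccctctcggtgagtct
The Saa1 and Saa2 windows lie on opposite strands of chromosome 7 and were identical in 287 of 301 aligned columns (95.3%), with 12 mismatches and 2 gaps. Saa3 was identical to Saa1 in 50.9% of aligned columns and to Saa2 in 50.2%. A STAT match was found in the windows of Fga, Fgb and Socs3, 1 in each, and in 8.30% of 32851 promoters of the same length. C/EBP matches numbered 4 in Saa3, 3 in Fgb, of which 1 spans the start and is not printed, 2 in Saa1, 1 in Saa2 and 1 in Fga, and 40.7% of all promoters held at least 1. None of the 7 windows held the NF-kB motif, which 8.46% of all promoters did, and the Fgg window on chromosome 3 held none of the motifs. A match describes letters and no measured binding. Since Saa1 and Saa2 are near-identical copies, and RefSeq lists each name as a synonym of the other, their probe sets were taken as uncertain between both genes.

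Arrays had medians from 4.22 to 4.57. The lowest value any probe set took was 2.21, shared by 18.6% of all measurements and called the floor here, and a transcript below it cannot be seen. The tubule genes Umod and Slc12a1 stood at 12.88 or higher and 11.60 or higher on all 95 arrays, as markers of the labelled tissue. Of the other measured tubule markers, Slc12a3 went down to 8.76 and Aqp2 to 4.87. The kidney of untreated week 12 mouse 10 stood apart from its group, with the highest Saa3 value of all 95 mice. It is named beside the main results of week 12. It also entered the correlations over all 95 arrays and the comparison of effects between weeks, where it is not named. In whole kidney RNA, more cells of a type and more RNA per cell cannot be told apart. Pristane and untreated mice of each week were compared with limma, with Benjamini-Hochberg adjustment over all probe sets and a call at an adjusted p under 0.05.

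Saa3 was the member that rose first after pristane. At week 4 its mean was 13.7-fold above untreated kidneys and it was called, where 0.124% of all probe sets were called higher. No member probe set, Saa3 among them, was called at weeks 2, 8 or 12, and no other was called at week 4. At week 14, 7 of the 8 probe sets were called higher, among them Fgg by 11.3-fold, against 4.57% of all probe sets. The probe set named Saa1 was not called. Fewer members passed when any single untreated mouse of that week was left out. None passed at a stricter limit for the adjusted p, or with the replicate number as a block. The plot shows the values of each mouse by week. A larger effect at week 14 than at week 12 was not shown after adjustment.

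**Figure D1:**
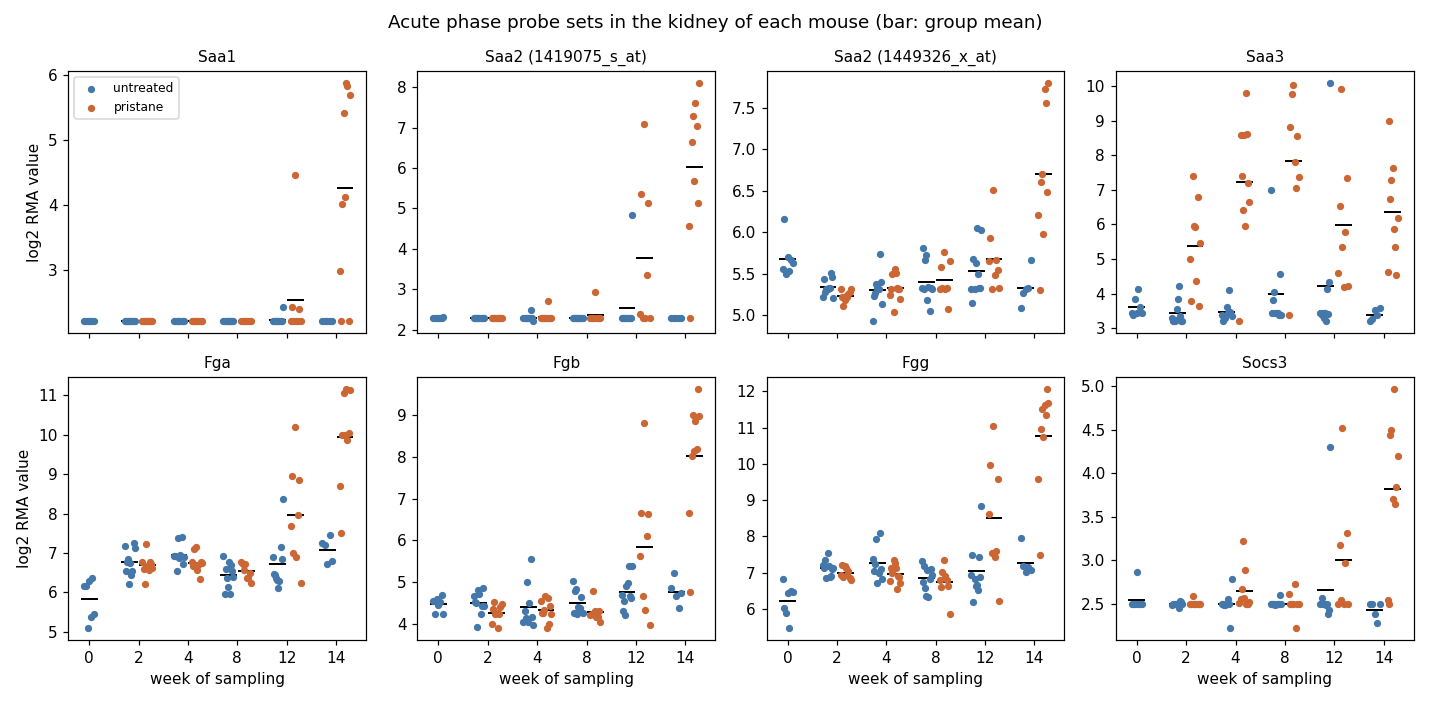
Log2 RMA values of the 8 member probe sets in each of the 95 kidneys (points) by week of sampling, evenly spaced, with the group mean as a bar and a different axis for each panel. Saa3 is high in most pristane mice from week 4, whereas the fibrinogen chains, Saa1, Saa2 and Socs3 are high in some mice of week 12 and most mice of week 14.

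At week 2, Saa3 ranged in pristane-SNF1 kidneys from 3.64 to 7.40 with a median of 5.46, and in untreated kidneys from 3.19 to 4.21 with a median of 3.27. Of the 9 pristane mice 7 were above every untreated mouse, and mice 2 and 8 were not. The mean difference was 1.94 (standard error 0.418) with an adjusted p = 0.0679 by limma, so it was not called. No member probe set was called at week 2, where 0.231% of all probe sets were called higher. At an unadjusted p under 0.05 Saa3 was higher and Saa2 (1449326_PM_x_at) and Fgb were lower, by -0.10 and -0.24, beside 1556 higher and 1664 lower of the 45037 probe sets. Without pristane mouse 2 or 8, Saa3 was called at week 2 (adjusted p = 0.0293 and 0.0238).

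Markers of the adrenal gland, which lies on the kidney, also differed in these week 2 kidneys. None of the 9 measured was called, but 8 had an unadjusted p under 0.05, all higher after pristane, and the list median was 2.61. Their linear sum ranged from 238.3 to 13331 (median 6675) in pristane and from 199.3 to 9084 (median 269.4) in untreated kidneys, so the groups overlapped. Pristane mouse 8, with the lowest of these pristane sums, had the lowest Saa3 of its group at 3.64. Untreated mouse 10, with the sum of 9084, had Saa3 at 3.21, and untreated mouse 2, with 5673, at 3.19. At week 4 the adrenal list median was -0.53, with 0 of 9 under an unadjusted p of 0.05. The part of adrenal tissue in the week 2 values was not tested.

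At week 4, Saa3 ranged from 3.21 to 9.81 (median 7.30) in pristane mice and from 3.21 to 4.10 (median 3.39) in untreated mice. All pristane mice except mouse 1, at 3.21, were above every untreated mouse. The log2 difference was 3.78 (standard error 0.617, adjusted p = 0.0179 by limma), and it was called in each of the 19 fits that left out 1 mouse. Saa3 was thus the only one of 8 member probe sets called at week 4, where 0.124% of all probe sets were called higher. The median difference over the member probe sets was 0.01, against 0.00 over all probe sets.

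At week 8, Saa3 reached the highest values of any pristane group, from 3.39 to 10.03 with a median of 8.18. Untreated mice ranged from 3.39 to 7.004 with a median of 3.43, and 7 of 8 pristane mice were above all of them. The 2 groups met through single mice, since untreated mouse 1 stood at 7.004, the next untreated mouse at 4.57, and pristane mouse 1 at 3.39. The difference was 3.86 (standard error 0.758), with an adjusted p = 0.0914 by limma, and it was not called. It was called without untreated mouse 1 (4.19, adjusted p = 0.0417) and without pristane mouse 1 (4.50, adjusted p = 0.00306). No member was called at week 8, where 0.0866% of all probe sets were called higher, and Saa3 alone of the 8 had an unadjusted p under 0.05, beside 1229 higher and 405 lower of all probe sets.

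Saa3 was still above 9 of the 10 untreated mice in 6 of 8 pristane mice at week 12, with a range from 4.18 to 9.91 and a median of 5.56. The untreated mice ranged from 3.21 to 4.34 apart from mouse 10 at 10.10, so that no pristane mouse was above all controls. The difference was 1.77 (standard error 0.948, adjusted p = 0.827 by limma) and, without untreated mouse 10, 2.43 (adjusted p = 0.0889). The macrophage markers of that untreated kidney summed to 1732 on the linear scale, against a median of 137.1 in its group. Its markers of injured tubules summed to 1137, against a median of 84.3. The part of either in its Saa3 value was not tested.

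At week 14, the untreated mice had Saa3 values of 3.21, 3.25, 3.51, 3.36 and 3.57. Pristane mice ranged from 4.55 to 9.002 with a median of 6.18, and all 9 lay above all 5 untreated mice. The difference was 2.98 (standard error 0.657, adjusted p = 0.0232 by limma). It did not pass without any single one of the untreated mice (adjusted p from 0.0513 to 0.0620), and it passed without each of the 9 pristane mice.

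Some markers of neutrophils and macrophages were higher after pristane, and most were not called, except for the macrophage markers at week 14. Of 7 measured neutrophil markers 1, 2, 2, 1 and 2 were called at weeks 2, 4, 8, 12 and 14, and of 6 macrophage markers 2, 1, 0, 0 and 5. Over all probe sets 0.231, 0.124, 0.0866, 0.0244 and 4.57% were called higher at these weeks. S100a9, a calcium-binding protein abundant in neutrophils and monocytes, was called at each week after pristane, by 1.70, 3.69, 3.55, 2.43 and 2.70 on the log2 scale at weeks 2, 4, 8, 12 and 14. Its partner S100a8 was called at weeks 4, 8 and 14, by 3.88, 3.29 and 2.23. The granule genes Mpo and Elane, which mark neutrophil precursors, lay at the floor in 84 and 91 of the 95 arrays. Ngp, Camp and Ltf, granule genes of later stages, were called at none of these weeks, with differences at week 4 of 0.73, 0.35 and 0.18. Linear values of the 7 measured neutrophil markers summed to between 46.5 and 1309 in pristane kidneys at week 4, against 43.2 to 56.1 in untreated ones. The 6 macrophage markers summed to between 138.0 and 412.4, against 108.9 to 163.5. Of the macrophage markers, the complement gene C1qa was called at weeks 2 and 4 (0.80 and 1.24 on the log2 scale) and the Fc receptor Fcgr1 at week 2 (0.83). Whether these cells had a part in the Saa3 values was not tested.

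**Figure D2:**
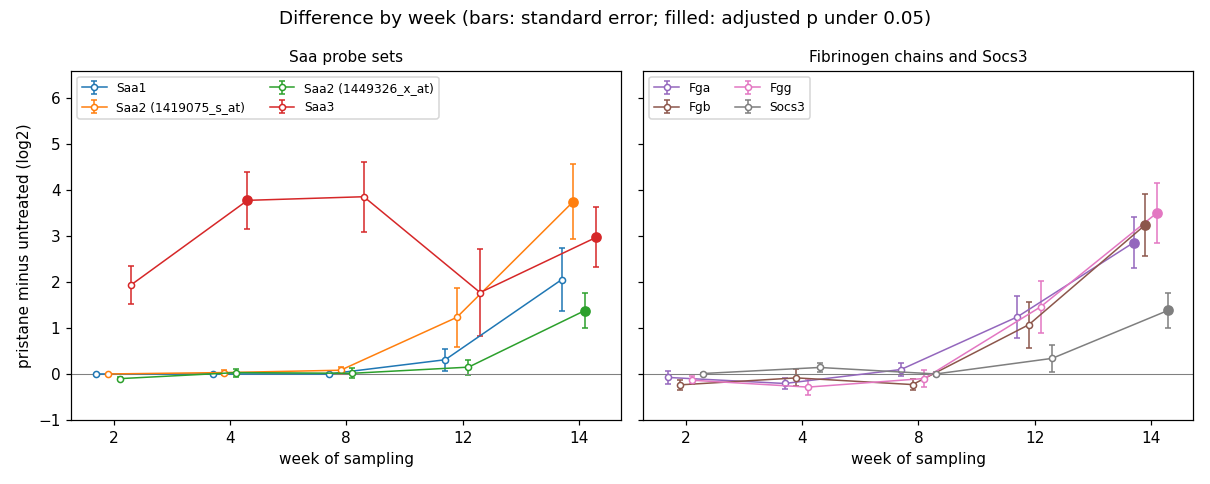
Log2 difference of pristane from untreated kidneys for each member probe set at 5 weeks (evenly spaced), with the limma standard error as bars and filled points for an adjusted p under 0.05. Saa3 stands at 3.78 at week 4 and 3.86 at week 8, where the other 7 probe sets lie within 0.29 of zero, and all 8 are above 1.3 at week 14.

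Fgg encodes the gamma chain of fibrinogen, the clotting protein that assembles from the products of Fga, Fgb and Fgg. At week 4 it ranged from 6.56 to 7.35 in pristane kidneys and from 6.71 to 8.09 in untreated kidneys, so that no pristane mouse was above the controls. The difference at weeks 2, 4 and 8 was -0.14, -0.29 and -0.10 for Fgg, -0.08, -0.21 and 0.10 for Fga, and -0.24, -0.09 and -0.23 for Fgb. None of these 9 values was called, with adjusted p from 0.687 to 1 by limma.

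Whether Saa3 and Fgg responded differently was tested on the difference of the 2 values within each mouse, with an exact two-sided permutation test over mice, a test chosen after the values were seen. Saa3 minus Fgg was higher in pristane than in untreated mice by 2.08 at week 2 (p = 0.000141, exact permutation test), by 4.07 at week 4 (exact p = 4.33e-05) and by 3.96 at week 8 (exact p = 0.000251). After adjustment over the 5 weeks these exact p were 0.000352, 0.000217 and 0.000419. Of the pristane mice, 7 of 9, 9 of 10 and 7 of 8 were above all untreated mice. The adjustment does not cover the choice of genes and test from the same values, so these p are a description. Saa3 alone differed by 1.94, 3.78 and 3.86 at these weeks, and so made up most of the difference. At week 12 the difference was 0.31 (exact p = 0.738), or 0.77 (exact p = 0.420) without untreated mouse 10, and at week 14 it was -0.53 (exact p = 0.691). With Fga or Fgb in place of Fgg the exact p was at most 0.000594 at weeks 2, 4 and 8.

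**Figure D3:**
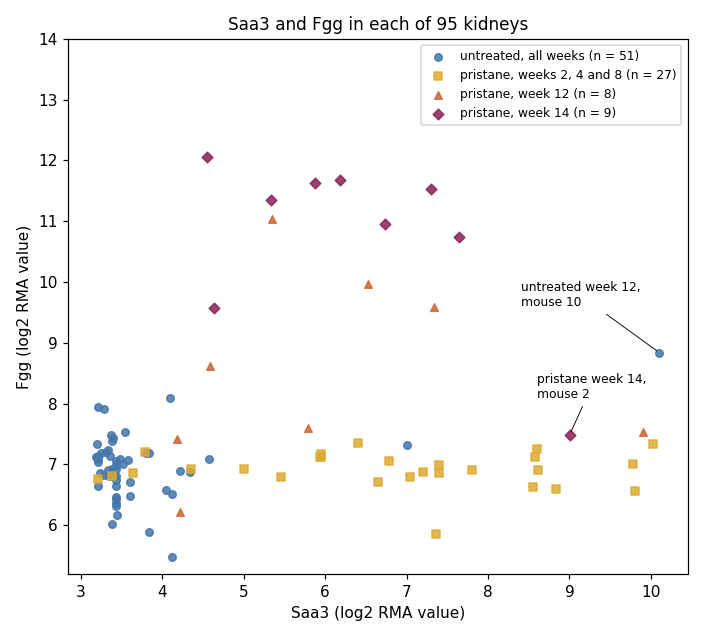
Log2 RMA values of Saa3 (horizontal) and Fgg (vertical) in each of 95 kidneys, by treatment and week. Pristane mice of weeks 2, 4 and 8 spread along Saa3 with Fgg between 5.86 and 7.35, whereas those of weeks 12 and 14 spread along both axes, and pristane week 14 mouse 2 has the highest Saa3 and the lowest Fgg of its group.

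At week 12, fibrinogen was high in some pristane kidneys and not in others. Fgg stood at 8.61, 9.96, 7.54, 11.04, 7.42, 7.60, 9.59 and 6.22 in pristane mice 1 to 8. The untreated mice ranged from 6.18 to 7.48 apart from mouse 10, at 8.84. Mice 2, 4 and 7 were above every untreated mouse in Fgg and in Fga, and mice 1, 2, 4, 6 and 7 in Fgb.

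The mean difference at week 12 was 1.46 for Fgg (standard error 0.557, adjusted p = 0.723), 1.24 for Fga (standard error 0.464, adjusted p = 0.708) and 1.07 for Fgb (standard error 0.503, adjusted p = 0.809). None of the 8 member probe sets was called by limma, where 0.0244% of all probe sets were called higher, and 3 had an unadjusted p under 0.05, all higher, beside 2000 higher and 781 lower of all probe sets. Without untreated mouse 10 the count remained 0, and the differences were 1.66, 1.42 and 1.14 (adjusted p = 0.204, 0.167 and 0.488).

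Mice 2, 4 and 7 were also the highest pristane mice in Saa2 (1419075_PM_s_at) and Socs3. In the other Saa2 probe set, 1449326_PM_x_at, mouse 4 alone was above every untreated mouse. Saa2 (1419075_PM_s_at) was at 5.37, 7.09 and 5.13 in mice 2, 4 and 7, at 3.36 in mouse 6, at 2.39 in mouse 1, and at its repeated value of 2.28 in mice 3, 5 and 8. Socs3 was highest in mouse 4, at 4.52, followed by mice 7 and 2 at 3.32 and 3.17. Mouse 3 went the other way, with the highest Saa3 of the group at 9.91 beside Saa2 at 2.28, Socs3 at 2.54 and Fgg at 7.54. Markers of injured tubules summed on the linear scale to 1399, 2065 and 1354 in mice 2, 4 and 7 and to 145.4 in mouse 3, and their part in these values was not tested.

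**Figure D4:**
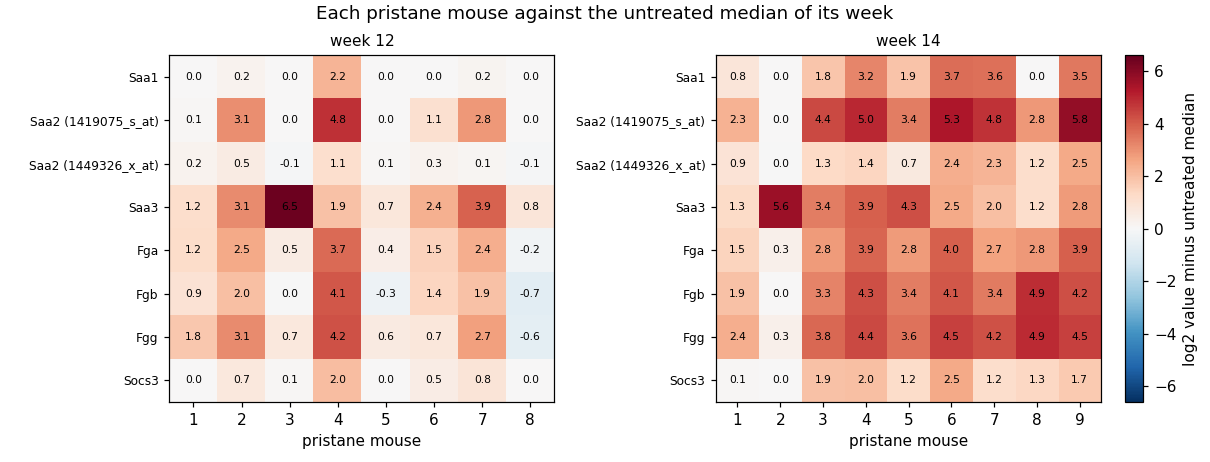
Log2 value of each pristane mouse (columns) minus the untreated median of its week, for the 8 member probe sets (rows) at weeks 12 and 14. At week 12 mouse 3 stands far higher in Saa3 than in any other row, and mouse 4 is above the untreated median in all 8 rows. At week 14 mouse 2 stands far higher in Saa3 than in any other row, and its Fga of 7.52 is just above the highest control at 7.45.

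At week 14, the 3 fibrinogen chains rose together. Fgg was at 7.95, 7.18, 7.02, 7.15 and 7.07 in the untreated mice and from 7.49 to 12.06 (median 11.34) in pristane mice. All pristane mice but mouse 2 were above every untreated mouse. The difference was 3.50 (standard error 0.650, 11.3-fold, adjusted p = 0.0124 by limma).

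Fga stood at 7.27, 7.20, 6.73, 7.45 and 6.79 in untreated and from 7.52 to 11.16 (median 10.01) in pristane mice, and all 9 were above the controls. It rose by 2.86 (standard error 0.548, 7.26-fold, adjusted p = 0.0137 by limma). Fgb stood at 4.87, 5.21, 4.67, 4.39 and 4.73 in untreated and from 4.77 to 9.61 (median 8.17) in pristane mice, with mouse 2 alone within the range of the controls. Its difference was 3.25 (standard error 0.668, 9.48-fold, adjusted p = 0.0180 by limma). Fga and Fgg were called in each of the 14 fits that left out 1 mouse, and Fgb in 12, but not without untreated mouse 3 or 4 (adjusted p = 0.0538 and 0.0543).

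Of the liver-type Saa genes, both Saa2 probe sets were called at week 14 and Saa1 was not. Of 51 untreated kidneys of all weeks 50 had Saa1 at the floor, the exception being week 12 mouse 10 at 2.43, and so had all pristane kidneys of weeks 2, 4 and 8. At week 14 the pristane mice stood at 2.99, 2.21, 4.02, 5.42, 4.12, 5.88, 5.83, 2.21 and 5.69 in order from mouse 1, so that 7 of 9 were above the floor. Measured against the floor, the difference was 2.05 (standard error 0.680, adjusted p = 0.0804 by limma), and it was called without pristane mouse 2 or 8 (2.31 each, adjusted p = 0.0270 and 0.0486).

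The Saa2 probe set 1419075_PM_s_at gave the value 2.28 in 47 of 51 untreated kidneys (within 0.01), among them all 5 of week 14. In pristane kidneys of week 14 it ranged from 2.28 to 8.11 with a median of 6.64, and 8 of 9 were above the controls. Measured against that repeated value, below which nothing can be seen, the difference was 3.75 (standard error 0.819, adjusted p = 0.0222 by limma), and it is no measured fold. It was lost without untreated mouse 2, 3, 4 or 5 (adjusted p from 0.0517 to 0.0601).

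The other Saa2 probe set, 1449326_PM_x_at, was at 5.09, 5.26, 5.31, 5.32 and 5.66 in untreated kidneys and from 5.30 to 7.80 (median 6.61) in pristane kidneys of week 14. It was higher by 1.38 (standard error 0.386, 2.60-fold, adjusted p = 0.0470 by limma), and 8 of 9 pristane mice were above the controls. Of the 14 fits that left out 1 mouse, 2 called it, those without pristane mouse 1 or 2. The 2 Saa2 probe sets thus moved the same way by differences of 3.75 and 1.38, the first of them against a repeated lowest value.

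Socs3 was near its lowest values in untreated kidneys of week 14, at 2.49, 2.49, 2.38, 2.28 and 2.49. In pristane kidneys it ranged from 2.49 to 4.97 with a median of 3.84, and all except mouse 2 were above the controls. The difference was 1.39 (standard error 0.379, 2.62-fold, adjusted p = 0.0442 by limma), and 2 of the 14 fits that left out 1 mouse called it, those without pristane mouse 1 or 2. At weeks 2, 4, 8 and 12 its difference was 0.01, 0.14, -0.00 and 0.34, with none called. The value at week 12 was 0.52 without untreated mouse 10 and 0.12 without pristane mouse 4. Outside the rule, the study's supplement gives the name Socs3 to 2 more probe sets, in a table chosen on these samples, so they are no independent evidence. They were higher at week 14 by 3.55 and 3.89 (adjusted p = 0.00882 and 0.00367 by limma), with 9 of 9 pristane mice above all untreated mice.

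In all, 7 of the 8 member probe sets were called higher at week 14, where 4.57% of all probe sets were called higher and 3.73% lower. The median difference was 2.92 over the member probe sets and 0.00 over all probe sets. The count fell to 4, 3, 2, 2 and 3 without untreated mouse 1, 2, 3, 4 and 5, respectively. Without pristane mouse 2 all 8 were called. The effect at week 14 less that at week 12 was above zero for all 8 probe sets, from 1.05 for Socs3 to 2.52 for Saa2 (1419075_PM_s_at, again from its repeated lowest value), and 7 had an unadjusted p under 0.05, beside 2036 of all probe sets in that direction. None passed after adjustment by limma (0 of 8, and 0% of all probe sets called higher), so a larger effect at week 14 than at week 12 was not shown. Without pristane week 14 mouse 2, 5 passed, and without mouse 1 of that group 1 passed.

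Pristane mouse 2 of week 14 had the highest Saa3 of its group, at 9.002, beside the lowest Fgg, Fga, Fgb and Socs3 and the repeated lowest values of Saa1 and Saa2. Among the 9 pristane mice of week 14, Saa3 and Fgg had a Pearson r of -0.56 (exact permutation p = 0.120) and a Spearman rho of -0.50 (exact p = 0.178), and r was 0.40 without mice 2 and 8. Saa3 and Socs3 had r of -0.11 and rho of -0.03 (exact p = 0.782 and 0.948), with r of 0.52 without mice 2 and 8. Neither relation held.

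Fgg and Socs3 had r of 0.80 (exact p = 0.00893) and rho of 0.65 (exact p = 0.0666). Lcn2, the iron-binding acute phase protein lipocalin, is also among the injured tubule markers used here. It had r of 0.95 with Fgg (exact p = 0.00551), with rho of 0.55 (exact p = 0.133). Without mice 1 and 2 these r fell to 0.17 and 0.11, so both relations rest on those mice. Socs3 and Lcn2 had r of 0.89 (exact p = 0.000267) and rho of 0.88 (exact p = 0.00308), and r was 0.81 without mice 1 and 2. For Saa3 and Lcn2, r was -0.38 and rho -0.07 (exact p = 0.324 and 0.880), with r of 0.57 without mice 2 and 8. After adjustment over the 6 relations, the exact p of r was 0.0179 for Fgg with Socs3, 0.0165 for Fgg with Lcn2, 0.00160 for Socs3 with Lcn2 and at least 0.180 for the other 3. For rho, the adjusted exact p was 0.0185 for Socs3 with Lcn2 and at least 0.199 for the rest.

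As a description over all 95 arrays, which share groups, the fibrinogen chains correlated with each other at r of 0.92 to 0.96, and Saa2 (1419075_PM_s_at) with Fga, Fgb, Fgg and Socs3 at 0.92 to 0.93. Saa3 correlated with the other 7 probe sets at 0.14 to 0.29. The 5 genes with the highest r to Saa3 over 95 arrays were Slfn4 (0.88), S100a8 (0.85), S100a9 (0.82), Oas3 (0.82) and Ccl6 (0.79), and after the mean of each group was subtracted Slfn4 (0.73), S100a8 (0.66), Chil1 (0.66), Ccl6 (0.66) and Msr1 (0.64). Slfn4 is a schlafen gene of myeloid cells, Ccl6 a chemokine and Msr1 a scavenger receptor of macrophages.

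For Fgg the list was different. Cfi (0.93), a complement protease, Havcr1 (0.93), the tubule injury receptor Kim-1, Cstb (0.93), a cathepsin inhibitor, Il1f6 (0.91), an interleukin 1 family cytokine, and Adamts4 (0.91), a matrix protease, led over 95 arrays. After subtraction of group means they were Havcr1 (0.82), Cstb (0.79), Adamts4 (0.79), Aoc1 (0.77) and Cfi (0.77). For Socs3 they were Tmem45a (0.95), Adamts4 (0.93), Lif (0.92), Cxcl1 (0.92) and Anln (0.92), and after subtraction Tmem45a (0.89), Lif (0.87), Adamts4 (0.86), Havcr1 (0.84) and Cxcl1 (0.84). Lif is a ligand of gp130 and Cxcl1 a neutrophil chemokine.

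In untreated mice, Fga and Fgg also changed with time. Fga ranged from 5.10 to 6.37 at week 0 and stood above that range in all 5 mice of week 14, with a difference of 1.24 (standard error 0.256, adjusted p = 0.0114 by limma). Fgg ranged from 5.47 to 6.81 at week 0 and all 5 mice of week 14 were above it, with a difference of 1.05 (standard error 0.244, adjusted p = 0.0191 by limma). These were 2 of 8 member probe sets, where 8.78% of all probe sets were called higher. The other 6 were not called, among them Fgb (0.30, adjusted p = 0.169), Saa2 1449326_PM_x_at (-0.35, adjusted p = 0.0941), Saa3 (-0.22, adjusted p = 0.317) and Socs3 (-0.12, adjusted p = 0.318).

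The genes that signal to the members were read in lists of ligands, receptors, kinases and factors, and inhibitors, each gene by its probe set of highest mean. None of these lists had a gene called at weeks 2, 4, 8 or 12. The counts at week 14, here and for the lists after them, stand beside 4.57% of all probe sets called higher and 3.73% called lower. At week 14, Lif was the only one of 8 measured cytokine ligands called, at 1.56 (standard error 0.379, adjusted p = 0.0309 by limma). Il6 was at the floor of 2.21 on average in untreated kidneys and had a mean of 2.63 in pristane kidneys (adjusted p = 0.538), and Il1b differed by 0.68 (adjusted p = 0.124).

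Of 8 receptors 4 rose, namely Osmr, the oncostatin M receptor (2.14), Il6st, which encodes gp130 (0.97), the tumour necrosis factor receptor Tnfrsf1a (0.90) and the interleukin 1 receptor Il1r1 (0.82). Of 12 kinases and transcription factors 5 rose, with Nfkbiz, an atypical IkB protein, at 1.88, the NF-kB subunit Relb at 1.16 and Stat3 at 1.03, followed by Nfkb2 and Tyk2. Stat3 had a standard error of 0.161 and an adjusted p = 0.00696 by limma, and all 9 pristane mice were above all untreated mice. Of 9 negative regulators other than Socs3, 3 rose, namely the interleukin 1 receptor antagonist Il1rn (2.82), the phosphatase Ptpn6 (1.63) and Nfkbia (0.71). The median difference was 0.21, 0.61, 0.43 and 0.51 in these 4 lists, against 0.00 over all probe sets.

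**Figure D5:**
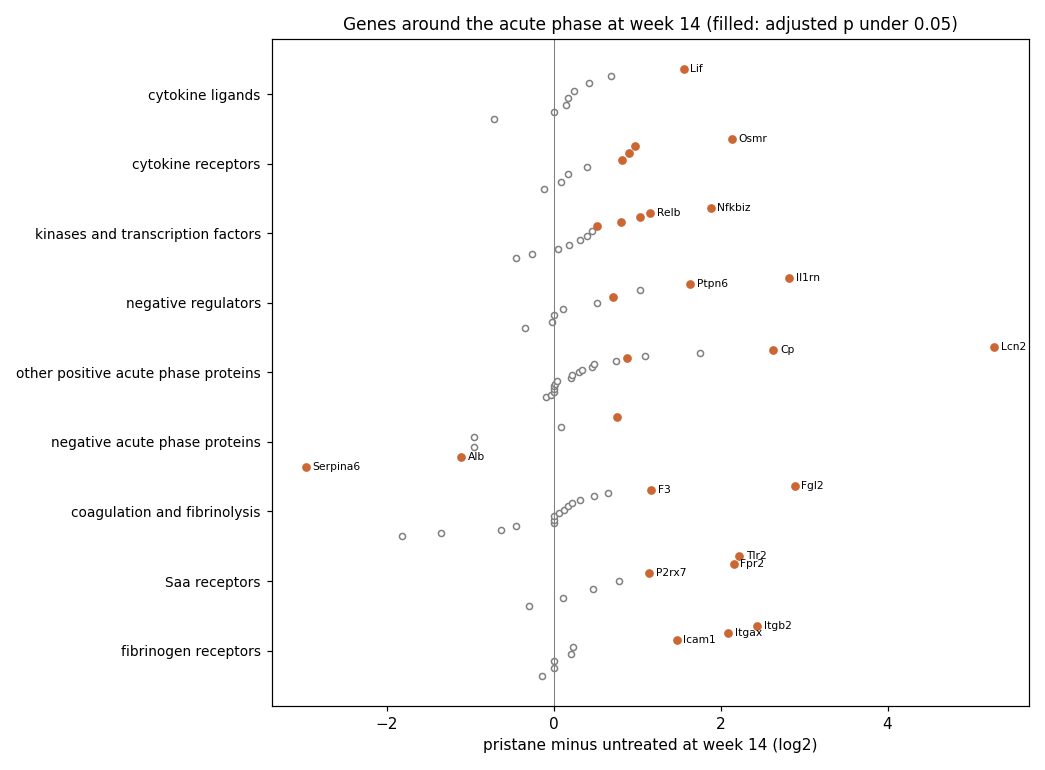
Log2 difference of pristane from untreated kidneys at week 14 for each measured gene of 9 lists around the acute phase (rows), with filled points for an adjusted p under 0.05 and names for the called genes farther from zero. Each list holds open points around zero, and the farthest filled points are Lcn2 at 5.28 and Serpina6 at -2.97.

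Among 19 other positive acute phase genes 3 rose at week 14, Lcn2 by 5.28 (standard error 0.878, 38.7-fold, adjusted p = 0.00859 by limma), the copper carrier ceruloplasmin (Cp) by 2.63 and Itih3 by 0.88, and the list median was 0.30. The haemoglobin binder haptoglobin (Hp) differed by 0.75 (adjusted p = 0.445). Of 6 negative acute phase genes, albumin (Alb) fell by 1.10 and the cortisol carrier Serpina6 fell by 2.97 on the log2 scale, while transferrin (Trf) rose by 0.75, and the median was -0.95.

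Of 16 genes of coagulation and fibrinolysis 2 rose (with 4.57% of all probe sets called higher), Fgl2, a membrane prothrombinase of the fibrinogen-like family, by 2.89 and tissue factor (F3) by 1.17, and the list median was 0.09. Receptors that bind serum amyloid A had 3 of 7 higher, Tlr2 by 2.22, the formyl peptide receptor Fpr2 by 2.16 and P2rx7 by 1.14, with a median of 0.79. Receptors of fibrinogen and fibrin had 3 of 8 higher, the integrin chains Itgb2 and Itgax by 2.44 and 2.09 and Icam1 by 1.47, with a median of 0.22.

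Cell type markers went in different directions at week 14. Of 8 measured hepatocyte markers none rose and 2 fell, Alb by 1.10 and Apoa2 by 1.19, and Apoh, Cps1 and Vtn lay at the floor in 89, 84 and 90 of 95 arrays. Their linear sum was 93.2 to 191.7 in pristane and 179.6 to 224.9 in untreated kidneys, and Alb, one of these markers, is also a negative acute phase gene. The part of liver cells in the fibrinogen and Saa2 values was not tested. The highest hepatocyte sum of untreated week 8 mice, 561.7, was in mouse 1, which also had the Saa3 value of 7.004.

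Of 6 macrophage markers 5 rose, with sums of 449.5 to 1947 against 166.0 to 225.9. Of 4 markers of injured tubules 3 rose, among them Havcr1 by 4.79 (standard error 0.944, adjusted p = 0.0153 by limma), with sums of 157.3 to 6731 against 67.0 to 218.7. The lowest of these pristane sums, 157.3, was that of mouse 2. Lcn2, listed above with the acute phase genes, is also among these injured tubule markers. Of 7 neutrophil markers 2 rose, S100a8 and S100a9. Of 4 fat cell and 9 adrenal markers none passed at week 14. Of 4 measured kidney tubule markers none rose and 1 fell, with a list median of -0.24. The podocyte marker Nphs1 differed by -0.60 and was not called. The part of these cells in the members' values was not tested.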

How the data were processed

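Kidney RNA of 95 SNF1 mice in 11 groups was hybridised, each mouse to an array of its own. RMA (background correction, quantile normalization and probe summary) had been run by the authors, who deposited log2 values, and these were used without change. The submitters' processing notes name RMA and Partek. RMA is known to compress differences between low intensities. Of 45141 probe sets 104 controls were left out. The annotation held 29449 of those tested, 28898 with 1 symbol and 551 with several. Groups came from the labels.

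With limma 3.58.1 in R 4.3.3, the pristane and untreated mice of each week were fitted alone, with Benjamini-Hochberg adjustment over 45037 probe sets and an adjusted p of 0.05 as the limit for a call, whatever its size. The code was tested on simulated data. Untreated week 14 was set against untreated week 0, and the effect at week 14 against that at week 12. Correlations and the difference of Saa3 and fibrinogen used exact permutation tests in Python 3.11.15. P-values set a difference or a correlation against the variation between these mice, and the number of arrays limits the precision. Medians of probe sets or genes in a list are over the differences of their means.

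The members and gene lists were chosen with earlier results of these data known. Genes named are the members, up to 3 called genes per list with the largest difference at week 14 (all where 5 or fewer were called, the others by name alone or with their value), any called at an earlier week, the 5 most like Saa3, Fgg and Socs3, and, chosen after their values were seen, Il6, Il1b and Hp. Cell type markers are named beside the results of the same kidneys. A gene with several probe sets was read by that of highest mean. Promoter windows were aligned globally with Biopython 1.88. An identity of the Saa proteins was planned and is not analysed here. Alternatives were median centring, quantile normalization, removal of probe sets below the 40th percentile of their mean over all arrays, a single fit of all groups, all untreated mice as controls, trended and robust empirical Bayes, the replicate number as a block, an adjusted p of 0.01, and leaving out each mouse.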

Additional observations from a re-analysis of the deposited data

Results flagged for a closer look

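Within its group, the highest or lowest mouse was tested by Dixon's criterion for each member probe set. Of 76 groups with any spread 22 had a mouse set apart, and in 13 of the 22 the whole range of the group was under 1 on the log2 scale. The chance rate of about 1 in 20 holds for values without ties. Some of these groups repeat a lowest value, so the 22 cannot be set against that rate.

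Untreated week 12 mouse 10 was set apart in 6 probe sets, at 2.43 for Saa1, 4.84 for Saa2 (1419075_PM_s_at), 10.10 for Saa3, 8.37 for Fga, 8.84 for Fgg and 4.296 for Socs3. Pristane week 12 mouse 4 was set apart at 4.45 for Saa1 and 4.52 for Socs3. For Saa3, untreated week 8 mouse 1 stood high at 7.004, pristane week 8 mouse 1 low at 3.39 and untreated week 4 mouse 7 high at 4.10. For Fgg, untreated week 14 mouse 1 stood at 7.95, and for Fgb, pristane week 8 mouse 3 at 4.78.

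Further Saa2 values were 2.33 in untreated week 0 mouse 7, 2.49 in untreated week 4 mouse 7, 2.72 in pristane week 4 mouse 7 and 2.93 in pristane week 8 mouse 4 for 1419075_PM_s_at, and 6.16 in untreated week 0 mouse 2 for 1449326_PM_x_at. Further Socs3 values were 2.87 in untreated week 0 mouse 4, 2.59 in pristane week 2 mouse 3, 2.60 in untreated week 8 mouse 9 and 2.22 in pristane week 8 mouse 6.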

How the results depend on the processing

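The count of 7 called members at week 14 was 0 with the replicate block and 0 at an adjusted p of 0.01, and it was 2 to 8 when single mice were left out. With the replicate block the week 4 count was 0, as it was at an adjusted p of 0.01. At week 2 the count of 0 became 1 (Saa3) with median centring, with the filter at the 40th percentile or with all untreated mice as controls, and 0 to 1 without single mice. At week 8 it became 1 (Saa3) with the filter, the single fit or all untreated mice, and 0 to 1 without single mice. At week 12 it became 2 in the single fit and 6 with all untreated mice as controls. For untreated week 14 against week 0, 2 became 5 with median centring, 1 in the single fit and 0 at an adjusted p of 0.01, and was 2 to 3 without single mice. The 0 members for week 14 against week 12 became 7 in the single fit and 0 to 5 without single mice. Without the 2 mice farthest from the median, the Pearson r among pristane mice of week 14 became 0.40 for Saa3 with Fgg, 0.52 for Saa3 with Socs3, 0.17 for Fgg with Socs3, 0.57 for Saa3 with Lcn2 and 0.11 for Fgg with Lcn2. Saa3 minus the fibrinogen chain at week 14 was 0.12 with Fga in place of Fgg. The cause of these shifts was not tested. None of the member differences refitted (Saa3 at each week, all 8 probe sets at weeks 12 and 14, Fga and Fgg in untreated mice) changed its sign. The labels name no pairing of mice by replicate number. Deviations of same-numbered mice correlated above 0.1 in 5 of 9, 3 of 9, 3 of 8, 1 of 8 and 2 of 5 pairs at weeks 2, 4, 8, 12 and 14. Differently numbered mice were not compared, so these counts cannot show whether the numbers carry a pairing. The filter removed Saa1, Saa2 (1419075_PM_s_at) and Socs3, whose low values limit what can be seen.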
